A study of Mus musculus with 24 samples.

Results

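Glutathione synthesis, glutathione transfer, the transcription factor NRF2 and drug efflux were followed through 10 mouse genes, of which 9 were among the 12091 genes of the expression table. The genes were selected on measured values of these samples, by a rule that names their levels in E0771-LG against E0771 cells and their effects in the 4 experiments. Each difference of the 9 genes is therefore a description without a test, also that between the shPTN cells of the lines, which follows from the others. SEs are those of limma, except that the SE between the shCtrl cells of the lines comes from the spread of the 3 samples in each. All 9 passed the filter on low values in each comparison, none of them through 1 group only, and the expression of Abcb1a was not analysed here.

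RNA sequencing values of 24 samples were used, 3 in each of 8 groups. In the first tumor model, 4T1 mammary carcinoma cells were placed in the mammary fat pad of female BALB/c mice aged 8 wk. In the other model, female MMTV-PyMT mice of the FVB/N strain, whose tumors come from a viral oncogene under a mammary promoter, were treated from 8 wk of age until 12 wk. In both models mice received 15 mg/kg of 3B10, a monoclonal antibody against pleiotrophin (PTN), or of C44, a mouse IgG control, in 2 doses per wk. E0771 is a mammary carcinoma line of C57BL/6 mice that metastasizes poorly, and E0771-LG was grown out of an E0771 lung lesion. Both lines carried either a single hairpin against PTN (shPTN) or a control hairpin against EGFP (shCtrl), after 3 viral infections and 6 wk in puromycin at 3 µg/ml. The sources call the cell samples biological replicates and do not say whether they were separate cultures, so p-values measure the spread between these samples. Library sizes of the 18 MMTV-PyMT and cell samples, read off the spacing of low values, were 15.63 to 21.12 M reads with a median of 18.25 M. The depth of each of the 6 4T1 samples is not given in the sources used here, which state an average number of reads for the study only.

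NRF2, the product of Nfe2l2, is kept low by KEAP1 and, once released, binds antioxidant response elements and raises genes of glutathione synthesis and detoxification. Glutathione transferases join glutathione to reactive compounds, and ABC transporters move such conjugates and many drugs out of the cell. In mammary tumors these genes are studied mainly for resistance to oxidative stress and to chemotherapy.

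Levels in the cells are log2 of reads per M reads of the library (CPM), where a difference of 1 is a 2-fold difference, and a gene was called at an adjusted p under 0.05. Ptn itself checks the knockdown labels. In E0771, Ptn was at 2.90, 2.18 and 2.28 in shCtrl and at −0.63, 0.25 and 0.53 in shPTN samples. In E0771-LG it was at 3.65, 4.51 and 3.74 in shCtrl and at 1.42, 0.98 and 1.38 in shPTN samples. In both lines the shPTN samples lay under all controls, with no overlap. The difference of Ptn was −2.40 (SE 0.37) in E0771. There the shPTN sample at −0.63 was below the filter value, so Ptn entered through the shCtrl samples only and no p is given. In E0771-LG, where all samples reached the filter value, Ptn fell by 2.71 (SE 0.28, adjusted p = 6.30e-05).

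The E0771-LG shPTN samples also stood apart by gene length. Their log2 values against the mean of E0771-LG shCtrl had slopes of −0.21, −0.28 and −0.21 per doubling of exon length, while the slopes of E0771 shPTN against E0771 shCtrl were −0.13, 0.08 and −0.01. Per 10 percentage points of GC the E0771-LG shPTN slopes were 0.15, 0.20 and 0.17, and those of E0771 shPTN were 0.15, 0.05 and 0.09. The median difference between shPTN and shCtrl in E0771-LG was 0.41 in the shortest of 5 bins of genes by exon length and −0.23 in the longest. Exon length counts every annotated exon base of a gene, 7990 for Abcb1b and 15092 for Abcc1. Their longest protein-coding transcripts have 4306 and 6792 bases. By exon length Gstm1, Gsta4, Gstp1 and Nqo1 lie in the shortest bin, and Abcb1b and Abcc1 in the longest. Values after removing each sample's trend on length, an alternative chosen after seeing the data, are therefore given beside many of the results. Results printed without such a value can shift with it too. The part of the trend in the results was not tested further.

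**Figure D1:**
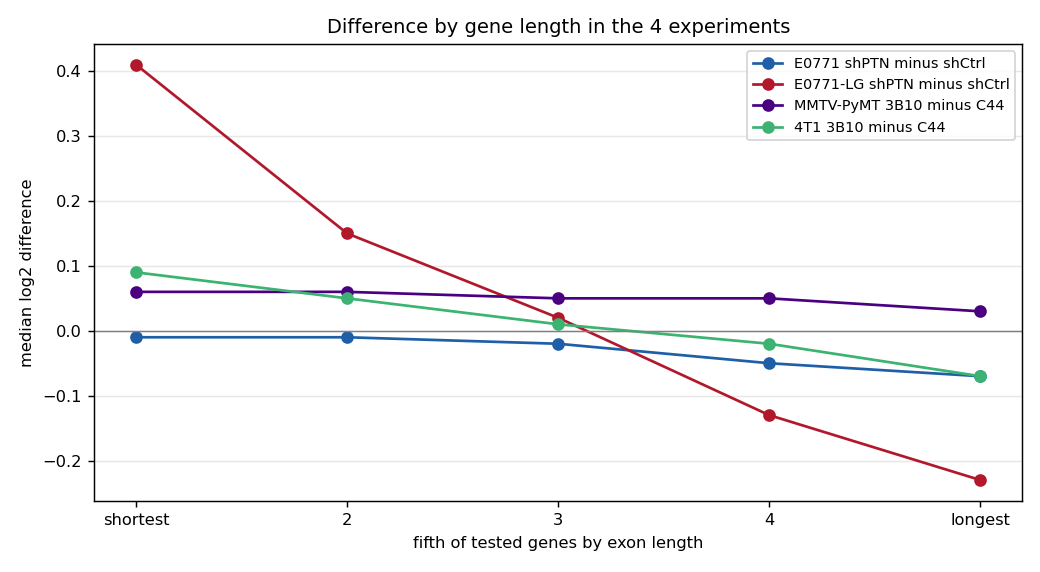
Median log2 difference of the genes tested (y axis) in 5 bins of exon length with nearly equal numbers of genes (x axis), for shPTN minus shCtrl in both lines and 3B10 minus C44 in both tumor models. The E0771-LG line runs from 0.41 in the shortest bin to −0.23 in the longest, and the other 3 lines stay between −0.07 and 0.09.

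Promoter windows of 7 of the 10 genes were taken from RefSeq on build GRCm38.p6, and Gclc, Gsta4 and Abcc1 have no window here. The core of the antioxidant response element, TGACNNNGC, was searched on both strands of these 300 bases around the start of transcription, and overlap with other motifs was not searched. It was found in the window of Nfe2l2 and, on the other strand, in those of Gclm and Abcb1a, and in 12.4% of all 32851 windows. The windows of Nqo1, Gstm1, Gstp1 and Abcb1b did not hold these letters. Nfe2l2 and Gclm are printed for their matches, in capitals, and Gstm1 (of its 2 windows the 1 at the annotated gene start) and Abcb1b because their levels in both lines lay furthest apart with either hairpin.
Nfe2l2 promoter, chr2:75704614-75704913, minus strand: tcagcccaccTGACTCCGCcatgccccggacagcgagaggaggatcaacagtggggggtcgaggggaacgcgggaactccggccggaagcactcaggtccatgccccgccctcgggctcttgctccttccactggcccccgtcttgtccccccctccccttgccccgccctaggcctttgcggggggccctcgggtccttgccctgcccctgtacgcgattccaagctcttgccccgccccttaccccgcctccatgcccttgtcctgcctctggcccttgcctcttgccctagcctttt
Gclm promoter, chr3:122245307-122245606, plus strand: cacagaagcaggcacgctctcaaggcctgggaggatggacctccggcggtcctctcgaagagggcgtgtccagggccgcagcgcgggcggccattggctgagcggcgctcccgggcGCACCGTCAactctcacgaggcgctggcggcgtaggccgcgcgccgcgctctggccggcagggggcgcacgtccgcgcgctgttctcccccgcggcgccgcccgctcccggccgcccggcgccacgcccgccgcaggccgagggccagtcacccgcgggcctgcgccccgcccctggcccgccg
Gstm1 promoter, chr3:108017924-108018223, minus strand: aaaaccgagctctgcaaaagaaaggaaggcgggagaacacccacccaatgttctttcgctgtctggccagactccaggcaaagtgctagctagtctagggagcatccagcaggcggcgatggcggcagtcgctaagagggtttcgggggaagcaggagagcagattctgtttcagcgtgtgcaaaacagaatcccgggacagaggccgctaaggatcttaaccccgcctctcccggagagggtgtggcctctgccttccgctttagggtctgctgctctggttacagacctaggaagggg
Abcb1b promoter, chr5:8797897-8798196, plus strand: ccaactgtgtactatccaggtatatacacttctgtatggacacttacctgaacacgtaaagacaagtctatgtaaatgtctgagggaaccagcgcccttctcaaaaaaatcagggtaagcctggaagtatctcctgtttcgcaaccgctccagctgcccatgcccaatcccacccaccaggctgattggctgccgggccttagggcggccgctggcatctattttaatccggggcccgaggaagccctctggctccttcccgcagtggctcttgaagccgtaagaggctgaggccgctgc

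Nfe2l2 (ENSMUSG00000015839, chr2:75675513-75704641, minus strand of GRCm38, as are the positions that follow) was at 6.73, 7.04 and 6.80 in E0771 shCtrl and at 6.34, 6.67 and 6.36 in E0771-LG shCtrl. With shPTN it was at 6.71, 6.71 and 6.79 in E0771 and at 6.22, 6.34 and 6.31 in E0771-LG. With either hairpin every E0771-LG sample was below every E0771 sample. In the shPTN cells the log2 difference between the lines was −0.44 (SE 0.09). Knockdown gave differences of −0.12 (SE 0.10) in E0771 and −0.16 (SE 0.11) in E0771-LG, there −0.27 after length correction, and the groups overlapped in both lines.

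Gclc and Gclm encode the catalytic and the modifier subunit of glutamate-cysteine ligase, the rate-limiting enzyme of glutathione synthesis. Gclc (ENSMUSG00000032350, chr9:77754535-77794485, plus strand) was at 6.54, 6.30 and 6.40 in E0771 shCtrl, 6.53, 6.59 and 6.65 in E0771 shPTN, 6.45, 6.52 and 6.44 in E0771-LG shCtrl and 6.58, 6.39 and 6.51 in E0771-LG shPTN, and the lines overlapped with either hairpin. Gclm (ENSMUSG00000028124, chr3:122245557-122270732, plus strand) was at 7.02, 6.79 and 6.89 in E0771 shCtrl and at 6.74, 6.47 and 6.52 in E0771-LG shCtrl. With shPTN it was at 7.02, 7.05 and 7.11 in E0771 and at 6.89, 6.43 and 6.59 in E0771-LG, again lower in every E0771-LG sample. The difference of Gclm between the lines with shPTN was −0.42 (SE 0.11), and −0.11 after length correction. That of Gclc was −0.10 (SE 0.09), and −0.02 after length correction. In E0771 all Gclm values with shPTN were at or above the highest control, and the difference was 0.16 (SE 0.09), or 0.27 after correction for length and GC. In E0771-LG knockdown gave Gclm a difference of 0.06 (SE 0.13), or 0.17 after length correction. The difference for Gclc there was 0.02 (SE 0.10), and it turned to −0.09 after length correction.

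Nqo1, a quinone reductase and a classical NRF2 target (ENSMUSG00000003849, chr8:107388225-107403206, minus strand), was at 3.57, 3.43 and 3.43 in E0771 shCtrl and at 2.54, 3.38 and 3.27 in E0771-LG shCtrl. The first E0771-LG control was low and the others lay just under E0771. With shPTN Nqo1 was at 3.68, 3.39 and 3.55 in E0771 and at 3.02, 3.20 and 3.40 in E0771-LG, and these groups overlapped. The difference between the lines with shPTN was −0.33 (SE 0.18), and −0.67 after length correction. Over all its alternatives it ran from −0.79 to −0.13. Knockdown gave 0.06 (SE 0.15) in E0771 and 0.14 (SE 0.25) in E0771-LG, with overlap in both lines. The E0771-LG value turned to −0.30 after length correction and to −0.07 with quantile normalization.

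Gstm1, a mu-class transferase (ENSMUSG00000058135, chr3:108012255-108017973, minus strand), was at 5.74, 5.76 and 5.81 in E0771 shCtrl, from 920 to 1108 reads. In E0771-LG shCtrl it was at 2.52, 2.43 and 2.18, from 84 to 105 reads. The means were 5.77 ± 0.04 and 2.38 ± 0.18 (SD, n = 3), a difference of −3.39 (SE 0.10). With shPTN Gstm1 was at 6.19, 5.73 and 6.27 in E0771 and at 2.26, 2.86 and 2.34 in E0771-LG, so the groups lay far apart there too. In these cells Gstm1 was 11.9-fold lower in E0771-LG (log2 difference −3.57, SE 0.19), in 3 of 3 samples.

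Knockdown gave Gstm1 a difference of 0.29 (SE 0.14) in E0771, or 0.19 without E0771 shPTN replicate 3 and 0.46 without E0771 shPTN replicate 2. In E0771-LG it was 0.11 (SE 0.25), which turned to −0.34 after length correction and to −0.13 with quantile normalization. The groups overlapped in both lines. Of the 50-base windows along its longest transcript, 23.1% also occurred in transcripts of other genes, most often the pseudogene Gstm2-ps1, so its counts are uncertain. Over the 12 cell samples, the genes with the highest Pearson correlation to Gstm1 among 10600 were Septin6 (0.997), Glmp (0.994), Sox7 (0.993), Lmbr1 (0.992) and Acss2 (0.991). These values describe samples that fall into 2 lines.

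Gsta4, an alpha-class transferase that acts on products of lipid peroxidation (ENSMUSG00000032348, chr9:78182774-78209349, plus strand), was at 2.60, 3.13 and 2.98 in E0771-LG shCtrl and at 5.30, 5.50 and 5.18 in E0771-LG shPTN. All 3 shPTN samples were above all 3 controls. Gsta4 was 5.38-fold higher with shPTN (log2 difference 2.43, SE 0.17), and the log2 difference was 1.94 after length correction. This difference contains the shCtrl values for which the gene was chosen. In E0771 it was at 5.61, 5.55 and 5.65 in shCtrl and at 5.16, 4.80 and 5.07 in shPTN, without overlap. There Gsta4 was lower with shPTN, with a difference of −0.59 (SE 0.12).

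Between the lines Gsta4 differed by −2.70 (SE 0.16) in the shCtrl cells. In the shPTN cells the difference was 0.32 (SE 0.13), with all E0771-LG samples above all E0771 samples, and it turned to −0.09 after length correction. Leaving out 1 sample gave 0.21 without E0771 shPTN replicate 2 and 0.39 without E0771 shPTN replicate 1.

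Gstp1, a pi-class transferase (ENSMUSG00000060803, chr19:4035407-4037985, minus strand), was at 7.05, 7.34 and 6.84 in E0771-LG shCtrl and at 7.43, 7.82 and 7.89 in E0771-LG shPTN. These groups did not overlap, and Gstp1 was higher with shPTN, with a difference of 0.63 (SE 0.15), or 0.20 after length correction. In E0771 it was at 7.51, 7.56 and 7.82 in shCtrl and at 7.52, 7.04 and 7.28 in shPTN, with overlap. That difference was −0.35 (SE 0.13), or −0.47 without E0771 shPTN replicate 1 and −0.23 without E0771 shPTN replicate 2. Along its longest transcript 62.3% of 50-base windows were shared with other genes, all of these with Gstp2, so reads of both cannot be told apart there.

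Between the lines Gstp1 differed by −0.55 (SE 0.17) in the shCtrl cells, without overlap. In the shPTN cells it differed by 0.43 (SE 0.14), with overlapping groups, or by 0.09 after length correction.

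Abcb1b encodes a P-glycoprotein, an exporter of many drugs (ENSMUSG00000028970, chr5:8798147-8866315, plus strand). It was at 4.41, 4.38 and 4.32 in E0771 shCtrl and at 7.15, 7.00 and 7.21 in E0771-LG shCtrl, a difference of 2.75 (SE 0.07). With shPTN it was at 3.87, 3.87 and 4.19 in E0771 and at 6.42, 5.93 and 5.97 in E0771-LG. The E0771-LG shPTN samples lay below their controls and above all E0771 samples. With shPTN, Abcb1b was 4.38-fold higher in E0771-LG (log2 difference 2.13, SE 0.15), and the log2 difference was 2.51 after length correction. Knockdown gave a difference of −1.01 (SE 0.14) in E0771-LG, or −0.84 after length correction. In E0771 the shPTN samples were also below their controls, without overlap, with a difference of −0.40 (SE 0.14). Of its 50-base windows 19.6% occurred in other transcripts, most often of Abcb1a.

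Abcc1, a multidrug resistance protein that exports glutathione conjugates (ENSMUSG00000023088, chr16:14361558-14475737, plus strand), was at 7.96, 7.83 and 7.89 in E0771-LG shCtrl and at 6.49, 6.77 and 6.82 in E0771-LG shPTN. Every knockdown sample was below every control, with a difference of −1.20 (SE 0.11), or −0.99 after length correction. In E0771 it was at 7.43, 7.83 and 7.65 in shCtrl and at 7.11, 7.50 and 7.30 in shPTN, with overlap. That difference was −0.33 (SE 0.12). Between the lines Abcc1 differed by 0.26 (SE 0.12) in shCtrl cells. In shPTN cells it differed by −0.61 (SE 0.12), and by −0.16 after length correction.

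**Figure D2:**
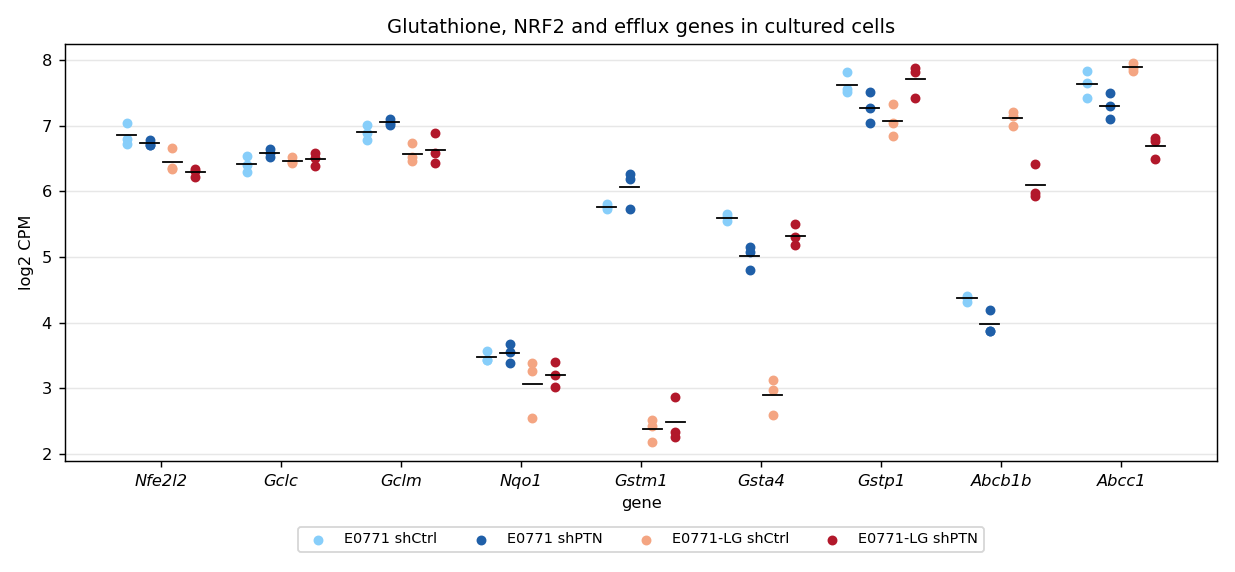
log2 CPM (y axis) of 9 genes (x axis) in the 12 cell samples, with a point for each sample and a bar at the mean of 3. Gstm1 is at 2.86 or lower in all 6 E0771-LG samples, Gsta4 is at 3.13 or lower in the 3 E0771-LG shCtrl samples, and Abcb1b is at 5.93 or higher in all 6 E0771-LG samples.

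Per kilobase of exon, counted over all annotated exon bases, the order of the genes differed between the lines. The order within a line depends on the length used. Abcb1b and Abcc1 would stand higher per kilobase of their longest transcript, which is much shorter. In E0771 shCtrl Gstp1 was highest at 7.00 ± 0.17 log2 CPM per kilobase (SD, n = 3), followed by Gsta4 at 5.26 ± 0.05 and Gstm1 at 5.21 ± 0.04, which differed by about their spread. Then came Nfe2l2 at 4.94 ± 0.16, Gclc at 4.50 ± 0.12, Gclm at 4.25 ± 0.11, Abcc1 at 3.72 ± 0.20, Nqo1 at 2.84 ± 0.08 and Abcb1b at 1.37 ± 0.05. In E0771-LG shCtrl Gstp1 was at 6.45 ± 0.25, followed by Gclc at 4.56 ± 0.05 and Nfe2l2 at 4.53 ± 0.18, within their spread, and by Abcb1b at 4.12 ± 0.11, Abcc1 at 3.98 ± 0.07 and Gclm at 3.92 ± 0.14, of which the last pair differed by less than their spread. The lowest there were Gsta4 at 2.56 ± 0.28, Nqo1 at 2.43 ± 0.46 and Gstm1 at 1.82 ± 0.18.

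Limma was fitted to all genes, and the counts of the 9 genes at an adjusted p under 0.05 are set beside the shares of all genes. Every contrast is named by the rule for the 9 genes or follows from those named, so nothing is read from these counts. In the shCtrl cells 1 of the 9 genes was at least 2-fold higher in E0771-LG, beside 4.26% of genes, and 2 were at least 2-fold lower, beside 13.0%. In the shPTN cells 2 were called higher in E0771-LG and 4 lower, beside 26.2% and 37.7% of genes, and the median difference was −0.33 for the 9 genes and −0.10 for all. After length correction 1 was called higher and 3 lower, beside 32.9% and 30.0%, with medians of −0.11 and 0.03. With quantile normalization the median of all genes moved to 0.02, and the calls over all genes went from 2756 higher of 6719 to 3407 higher of 6736. With length correction they were 3458 higher of 6609.

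Knockdown in E0771-LG called 2 of 9 higher and 2 lower, beside 24.3% and 22.1% of genes, with a median of 0.06. After length correction it called 1 higher and 2 lower, beside 17.7% and 21.3%, with a median of −0.27. Knockdown in E0771 called 0 higher with limma, also with voom weights, beside 8.89%, and 1 lower, beside 11.7%, and 4 had an unadjusted p under 0.05, beside 34.1%. The E0771 count moved with the setting, to 0 with 18 samples in 1 fit, 3 after length correction and 4 after correction for length and GC, beside 10.3%, 26.4% and 26.6% of genes in either direction. It was 2 without E0771 shCtrl replicate 1, 2 without E0771 shPTN replicate 1 and 3 without E0771 shPTN replicate 2, beside 18.8%, 20.7% and 20.3% of genes. The shares of all genes rest on single samples too. In E0771 the 2140 calls over all genes became 1268 without E0771 shCtrl replicate 2, 1164 without E0771 shCtrl replicate 3 and 1220 without E0771 shPTN replicate 3. In E0771-LG the 4826 calls became 3206 without E0771-LG shPTN replicate 2.

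**Figure D3:**
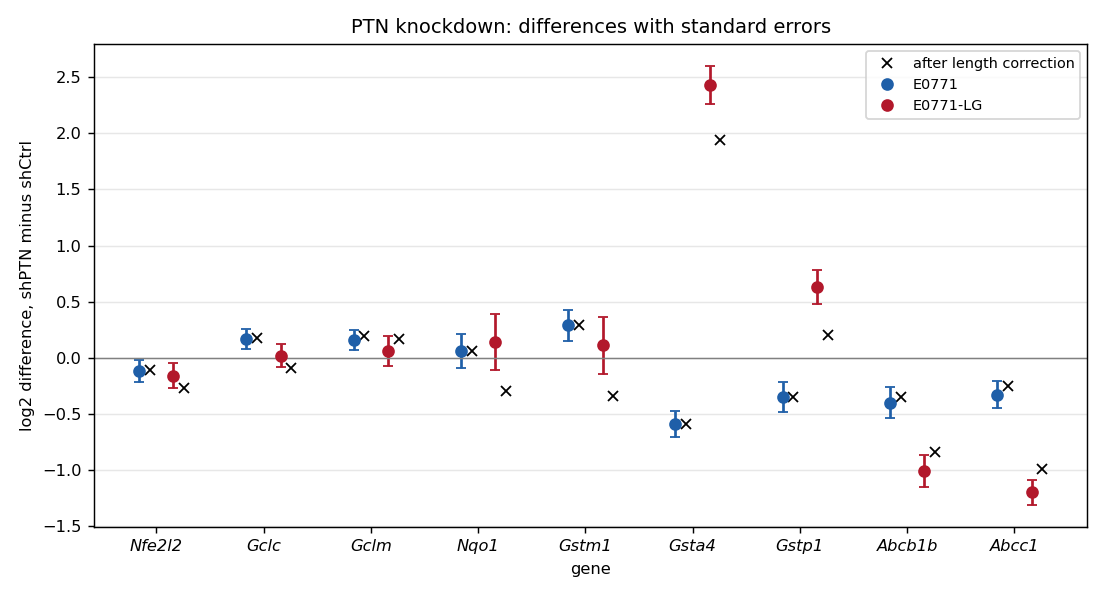
log2 difference between shPTN and shCtrl (y axis) of 9 genes (x axis) in E0771 and E0771-LG, as circles with bars of 1 SE to each side, and after length correction as crosses without bars. The circles of Gsta4 are at −0.59 in E0771 and 2.43 in E0771-LG.

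Other genes of these pathways came from 5 lists of 108 genes, of which 89 were in the table. The lists were written from general knowledge, but with earlier results of these data known. Their counts and p-values are therefore not independent of that choice. A gene that reached the filter value in all 3 samples of 1 group and not in all 3 of the other entered the test through the group where it was high, so its call is partly fixed by the filter. These were 311 of 10405 genes with knockdown in E0771-LG and 172 of 10394 in E0771, and those among the called list genes are named. Among the other glutathione transferases, knockdown in E0771-LG called 10 of 14 higher and 1 lower, beside 24.3% and 22.1% of all genes, with a median difference of 1.09 beside 0.05 for all genes. After length correction 7 were higher and 2 lower, beside 17.7% and 21.3%, with a median of 0.71. Gstm5, counted among the 10, entered through the shPTN samples only, and length correction ended its call (adjusted p = 0.160). Gstt1, of the theta class, was at 0.91, 1.28 and 0.71 in shCtrl and at 3.13, 3.76 and 4.00 in shPTN, with no overlap, and rose by 2.66 (SE 0.29, adjusted p = 8.63e-05). In E0771 Gstt1 was at 3.05, 3.57 and 3.50 in shCtrl and at 3.57, 2.84 and 3.42 in shPTN, with overlap, and the test of the difference of effects gave 2.75 (SE 0.38, adjusted p = 0.000165). The microsomal transferase Mgst1 rose by 1.72 (SE 0.32, adjusted p = 0.00159) in E0771-LG. Gstcd fell by 0.57. In E0771, 1 of 15 was called higher, Gstm7 with a rise of 2.15 (SE 0.24, adjusted p = 0.000249), and 1 lower, Mgst3, which fell by 1.31, beside 8.89% and 11.7% of all genes, and after length correction 2 were higher and 2 lower, beside 12.5% and 13.9%.

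In the list of glutathione synthesis and recycling, knockdown called 8 of 21 higher and 2 lower in E0771-LG, beside 24.3% and 22.1% of all genes. Gpx3, counted among the higher, entered through the shPTN samples only, and its call ended with length correction (adjusted p = 0.0998). After length correction the counts were 7 and 4, beside 17.7% and 21.3%. In E0771 it called 2 of 20 higher and 6 lower, beside 8.89% and 11.7%. Slc7a11, the cystine importer that feeds glutathione synthesis, was at 4.78, 5.05 and 5.05 in E0771 shCtrl and at 3.91, 4.49 and 4.01 in E0771 shPTN. In E0771-LG it was at 5.77, 6.08 and 5.62 in shCtrl and at 4.74, 4.99 and 5.34 in shPTN. The groups did not overlap in either line, and Slc7a11 fell by 0.82 (SE 0.16, adjusted p = 0.00601) in E0771. It fell by 0.81 (SE 0.17, adjusted p = 0.00319) in E0771-LG, or by 0.59 (adjusted p = 0.0159) after length correction. Chac1, which degrades glutathione, rose by 1.09 (adjusted p = 0.00275) in E0771-LG, or by 0.67 (adjusted p = 0.0120) after length correction.

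Of the regulators and partners of NRF2, knockdown called 2 of 12 higher and 1 lower in E0771-LG, beside 24.3% and 22.1% of all genes. The lower gene, the dipeptidyl peptidase Dpp9, was at −0.35 (adjusted p = 0.0160), and at −0.17 (adjusted p = 0.192) after length correction, which left 2 higher and ended the call of Dpp9. In E0771 limma called 0 of 12 higher and 0 lower, as with voom weights, and 4 had an unadjusted p under 0.05, beside 34.1% of all genes. After length correction 1 was called higher there, again Dpp9, named after its values were seen, at 0.30 (adjusted p = 0.0186). Rbx1, a subunit of the ligase that marks NRF2 for degradation, was at 6.55, 6.25 and 6.41 in E0771-LG shCtrl and at 7.37, 7.37 and 7.30 in shPTN, without overlap, and rose by 0.94 (SE 0.10, adjusted p = 9.33e-05). Of the NRF2 target enzymes, 10 of 22 were called higher and 4 lower in E0771-LG, beside 24.3% and 22.1% of all genes, or 6 and 5 after length correction, beside 17.7% and 21.3%. In E0771 they were 4 and 3, beside 8.89% and 11.7%, or 6 and 5 after length correction, beside 12.5% and 13.9%. Blvrb, a biliverdin reductase, was at 4.23, 4.50 and 4.25 in E0771-LG shCtrl and at 5.66, 6.05 and 5.74 in shPTN, without overlap, and rose by 1.49 (SE 0.14, adjusted p = 4.54e-05). In E0771 it was at 5.98, 6.19 and 6.23 in shCtrl and at 5.83, 5.13 and 5.47 in shPTN, again without overlap, and fell by 0.66 (SE 0.16, adjusted p = 0.0146). The difference of these effects was 2.15 (SE 0.23, adjusted p = 2.13e-05). Tkt, of the pentose phosphate pathway, rose by 0.46 in E0771 and by 1.13 in E0771-LG.

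Of the other drug efflux transporters, knockdown called 2 of 13 higher and 4 lower in E0771-LG, beside 24.3% and 22.1% of all genes, and 1 and 3 of 13 in E0771, beside 8.89% and 11.7%. Slc47a1, an exporter of organic cations, fell by 1.90 (SE 0.18, adjusted p = 9.29e-05) in E0771 and fell by 1.35 (SE 0.18, adjusted p = 0.000215) in E0771-LG. Abcg2, the breast cancer resistance protein, was at 6.02, 5.86 and 5.80 in E0771 shCtrl and at 6.89, 6.86 and 7.01 in E0771 shPTN, and rose by 1.03 (SE 0.09, adjusted p = 7.95e-05). In E0771-LG it was at 5.18, 4.92 and 4.88 in shCtrl and at 4.77, 4.47 and 4.74 in shPTN, lower without overlap, but the difference of −0.33 (adjusted p = 0.0723) did not pass, and was −0.15 (adjusted p = 0.443) after length correction. The difference of effects was −1.36 (SE 0.16, adjusted p = 5.78e-05). Over all 5 lists knockdown in E0771 called 21 of 82 genes, beside 20.6% of all genes, or 9 with 18 samples in 1 fit, beside 10.3%. In the test of the difference of effects 26 of 83 were called higher in E0771-LG and 7 lower, beside 18.3% and 15.7% of all genes, or 25 and 10 after length correction, beside 1554 and 1804 of 10600 genes.

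Between the lines with shPTN, 26 of 82 pathway genes were called higher in E0771-LG and 29 lower, beside 26.2% and 37.7% of all genes, so the counts are not a result about these pathways. After length correction they were 30 and 25, beside 32.9% and 30.0%. Gstm7, counted among the lower, was below 1 CPM in all 3 E0771-LG shPTN samples and entered through E0771 shPTN only. Gstp2, counted among the higher, entered through E0771-LG shPTN only, and length correction ended its call (adjusted p = 0.0985). The mu-class transferases Gstm4 and Gstm2 were also lower, with log2 differences of −1.63 and −1.39. Abcg2 was also lower, by a difference of −2.26 (SE 0.11, adjusted p = 9.30e-08), and Chac1 was higher by 2.22 (SE 0.19, adjusted p = 3.15e-06).

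Markers of cell types were read beside these results, as CPM summed over each list. The 6 mammary epithelial markers, with Krt8 most abundant, summed to 99.3, 114 and 107 in E0771 shCtrl and to 115, 98.9 and 108 in E0771 shPTN. In E0771-LG they summed to 158, 204 and 164 in shCtrl and to 424, 565 and 516 in shPTN, where 3 of the 3 tested were called higher, of which Krt18 was below 1 CPM in every shCtrl sample and entered the test through shPTN only. Cdh1, Krt14 and Krt5 were below 1 CPM in all 12 cell samples, so these defining markers are near 0 in both carcinoma lines. The 6 fibroblast markers summed to 69.4, 92.5 and 79.8 in E0771 shCtrl and to 312, 268 and 312 in E0771 shPTN, with 4 of 4 tested called higher, of which Col1a2 entered through shPTN only, and Dcn and Lum were below 1 CPM in these samples. Pdgfra was the most abundant in shCtrl and Col3a1 in shPTN. In E0771-LG, with Pdgfra most abundant, they summed to 76.3, 117 and 92.4 in shCtrl and to 53.8, 54.3 and 61.4 in shPTN, with 1 of 5 tested called higher, Dcn, which entered through shPTN only, and 2 lower, of which Col1a1 entered through shCtrl only. The sum of the 5 leukocyte markers, of which 2 were tested in each line, ran in opposite directions in the lines. These markers summed to 15.4, 21.4 and 19.6 in E0771 shCtrl and to 47.6, 32.3 and 38.3 in E0771 shPTN. There Coro1a was most abundant and 2 of 2 tested were called higher. In E0771-LG they summed to 91.6, 88.5 and 88.6 in shCtrl and to 47.4, 52.9 and 56.0 in shPTN, with Laptm5 most abundant and 1 of 2 called lower, while Ptprc, Cd53 and Cd52 were below 1 CPM in all 12 cell samples. Fabp4, of the adipocyte list, was at 10.9 CPM or more in the E0771-LG shCtrl samples and at 3.93 CPM or less in the shPTN samples, and was called lower. Of the 9 lists, 4 did not overlap between the hairpins in E0771 and 7 did not in E0771-LG, beside 39.4% and 57.1% of single genes. Besides those given, they were endothelium and skeletal muscle, both higher, in E0771. Skeletal muscle markers there summed to 1.33 CPM or less in each sample, and 0 of them were tested. In E0771-LG the further lists were macrophages and T cells, higher, and skeletal muscle, lower, there at 5.82 CPM or less in each sample. The part of these shifts in the results was not tested.

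In the tumors the comparison asks whether the antibody against PTN changed these genes. Values of 4T1 are log2 of what, by its fall with gene length, looks like a length-normalized value, and are compared within 4T1. There Abcb1b varied most with C44, at 6.18, 5.80 and 4.71 with C44 and at 4.75, 5.04 and 5.49 with 3B10. The groups overlapped, and the difference was −0.47 (SE 0.37). Leaving out 1 tumor gave −0.89 without 4T1 C44 replicate 3 and −0.16 without 4T1 C44 replicate 1. Gstm1 was at 3.00, 3.86 and 3.65 with C44 and at 3.65, 3.77 and 3.65 with 3B10, and Gsta4 was at 4.94, 5.28 and 5.61 with C44 and at 5.59, 4.89 and 5.82 with 3B10. Both genes overlapped between the treatments. With C44 the levels ran from Gstp1 at 7.81 ± 0.07 and Nfe2l2 at 7.01 ± 0.14 through Abcb1b at 5.56 ± 0.76 and Gsta4 at 5.28 ± 0.33, within their spread, then Gclm at 4.25 ± 0.30, Gclc at 4.21 ± 0.20, Abcc1 at 3.97 ± 0.42 and Gstm1 at 3.50 ± 0.45 down to Nqo1 at 2.69 ± 0.19 (SD, n = 3). In bulk tumors fewer cells of a type and less RNA per cell cannot be told apart.

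In MMTV-PyMT tumors Gstm1 was at 5.12, 4.64 and 3.42 with C44 and at 4.02, 4.57 and 2.87 with 3B10, so that both groups were wide and overlapped. The difference was −0.58 (SE 0.55), or −1.06 without MMTV-PyMT C44 replicate 3 and −0.10 without MMTV-PyMT 3B10 replicate 3. Nqo1 was at 5.78, 6.01 and 5.43 with C44 and at 5.60, 5.27 and 4.58 with 3B10, a difference of −0.59 (SE 0.28), or −0.81 without MMTV-PyMT 3B10 replicate 1 and −0.30 without MMTV-PyMT 3B10 replicate 3. Gsta4 was at 5.06, 4.22 and 5.14 with C44 and at 4.25, 3.53 and 4.74 with 3B10, a difference of −0.63 (SE 0.36), or −0.93 without MMTV-PyMT C44 replicate 2 and −0.31 without MMTV-PyMT 3B10 replicate 2. For both genes the lowest sample had received 3B10, and the groups overlapped. Here too the order per kilobase depends on the exon length used. Per kilobase the C44 levels ran from Gstp1 at 5.23 ± 0.25 and Nqo1 at 5.10 ± 0.29, within their spread, through Gsta4 at 4.47 ± 0.51, Nfe2l2 at 4.20 ± 0.36, Gstm1 at 3.83 ± 0.88, Gclm at 3.30 ± 0.07, Gclc at 3.02 ± 0.39 and Abcc1 at 0.77 ± 0.06 down to Abcb1b at −2.08 ± 0.65, which rests on 21 to 49 reads per sample.

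Limma called 0 of 9 genes in 4T1, beside 0% of 11467 genes, and 0 of 9 in MMTV-PyMT, beside 0% of 11361. At an unadjusted p under 0.05 there were 0 of 9 in 4T1 and 0 of 9 in MMTV-PyMT, beside 6.27% and 2.70% of genes, and voom weights on recovered reads gave 0 calls in MMTV-PyMT. The pathway lists had 0 calls with limma in either model, with 8 of 84 genes at an unadjusted p under 0.05 in 4T1 and 0 of 86 in MMTV-PyMT, and 0 calls with voom weights there. The rule for the 9 genes names these effects, so nothing is read from their counts. For the lists, a p that misses the threshold does not show that the values did not differ.

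**Figure D4:**
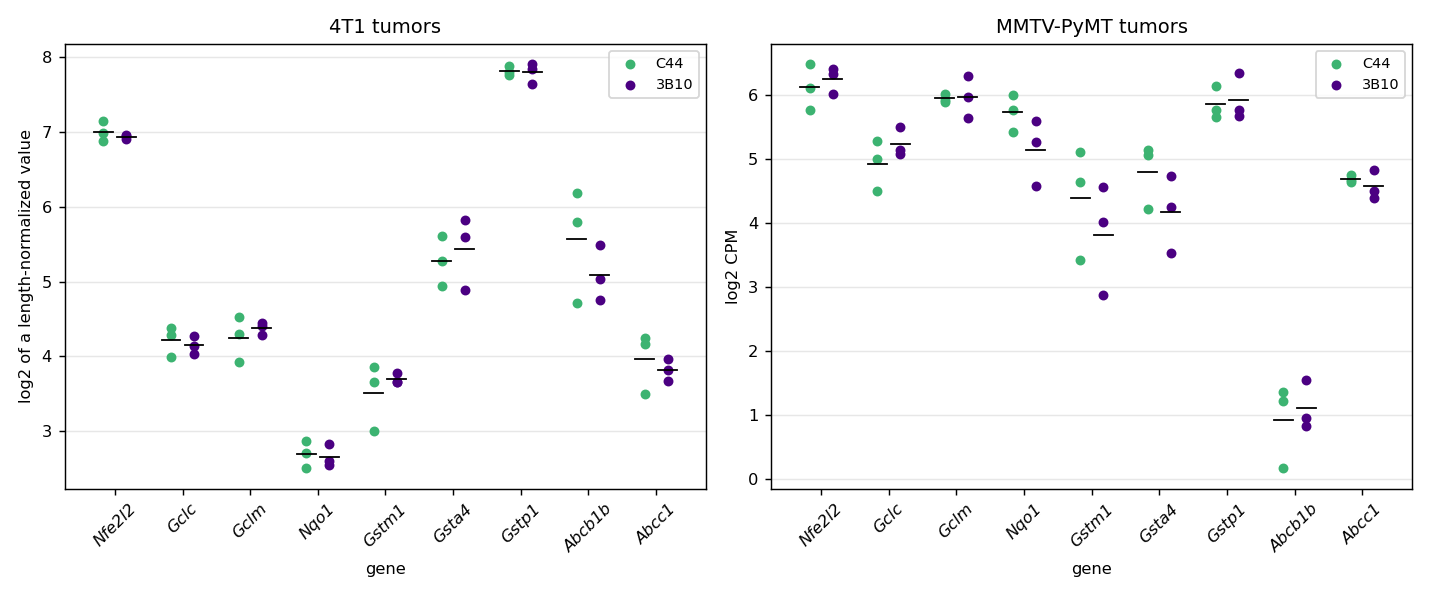
Level of 9 genes (x axis) in each 4T1 tumor (left, log2 of a length-normalized value) and each MMTV-PyMT tumor (right, log2 CPM), with a bar at the mean of 3. The C44 and 3B10 samples overlap for each of the 9 genes.

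Cell type markers were summed in the tumors too, off the log scale, on the 4T1 scale in 4T1 and in CPM in MMTV-PyMT. In 4T1 the 6 mammary epithelial markers, with Krt18 most abundant, summed to 3192, 3464 and 3451 with C44 and to 4940, 4460 and 5100 with 3B10, and the 5 leukocyte markers, with Cd53 most abundant with C44 and Laptm5 with 3B10, to 950, 920 and 961 and to 758, 813 and 586, neither list with overlap. The 4 T cell markers, with Cd3g most abundant, summed to 57.5, 78.8 and 85.2 with C44 and to 38.6, 42.2 and 12.1 with 3B10. The 3 skeletal muscle markers in the table, with Tnnt3 most abundant, summed to 9.99, 10.8 and 23.9 with C44, where Myh4 was below 1, and to 32.2, 137 and 232 with 3B10. Neither of these lists overlapped between the treatments. The other 5 lists, of macrophages, neutrophils, endothelium, fibroblasts and adipocytes, did overlap, and single genes did not overlap in 11.3%. Limma called 0 of 37 markers higher and 0 lower in 4T1, and 20 had an unadjusted p under 0.05, beside 6.27% of all genes. These were 5 of 5 mammary epithelial, 4 of 4 T cell, 3 of 4 neutrophil and 2 of 2 skeletal muscle markers, of which Acta1 entered through 3B10 only. The others were 2 of 5 leukocyte, 2 of 5 macrophage and 2 of 6 fibroblast markers. Neutrophil markers summed to 1116, 1046 and 1884 with C44 and to 1157, 734 and 579 with 3B10. Macrophage markers summed to 3579, 3556 and 3969 with C44 and to 2425, 3573 and 2229 with 3B10. Fibroblast markers summed to 1288, 1740 and 1139 with C44 and to 941, 4010 and 1602 with 3B10. In MMTV-PyMT the 6 fibroblast markers, with Col1a1 most abundant, summed to 2233, 3404 and 1171 with C44 and to 2220, 1667 and 1693 with 3B10, and the mammary epithelial markers to 5195, 4603 and 3671 and to 4139, 4473 and 3717, and all 9 lists overlapped between the treatments there. Limma called 0 of 35 markers higher and 0 lower, as with voom weights, and 1 had an unadjusted p under 0.05. The part of these cells in the values of the 9 genes was not tested.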

How the data were processed

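For the deposited data the authors used HISAT2 on mm10, featureCounts for counting and edgeR for testing, and they also name limma. They deposited log2 values, and the authors' step that made them is not given in the sources used here. Low deposited log2 values of MMTV-PyMT and cell samples were spaced like whole reads plus 0.5 in log2 CPM. Those of 4T1 were not, and fell with gene length against E0771-LG shCtrl (slopes −0.74 and −0.80 per doubling). Each comparison was fitted with limma 3.58.1 in R 4.3.3 (lmFit, eBayes with trend and robust, two-sided, Benjamini-Hochberg over all genes tested), on genes at least 1 above the lowest value of the sample, off the log scale, in at least 3 samples, and checked on simulated data. Lengths and positions are from GENCODE. The members and lists were chosen with earlier results of these data known. Pathway genes named are among the 3 called genes with the largest difference per list, direction and comparison. Alternatives changed the filter, scaling, pseudocount, moderation, threshold, block, pooling and weights, left out each sample and, added later, corrected for length and GC.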

Additional observations from a re-analysis of the deposited data

Results flagged for a closer look

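The 4 genes given here are those whose difference between the effects of the PTN hairpin in E0771-LG and E0771 had an adjusted p under 0.05 with limma, 2 of the 9 genes higher and 2 lower, beside 18.3% and 15.7% of all genes. The difference of effects equals the difference of the lines with shPTN less that with shCtrl, and the rule that selected the genes names the values it is made of. The p is therefore no test for them, nothing is read from the counts, and the values are descriptions. For Gsta4 the lines differed by 0.32 (SE 0.13), or −0.09 after length correction, in the shPTN cells and −2.70 (SE 0.16) in the shCtrl cells. The difference of effects was 3.02 (SE 0.21), most of it the difference of the shCtrl cells, and it was 2.53 after length correction. The Gsta4 groups did not overlap in either line, with shPTN above shCtrl in E0771-LG and below it in E0771. For Gstp1 the lines differed by 0.43 (SE 0.14), or 0.09 after length correction, in the shPTN cells and −0.55 (SE 0.17) in the shCtrl cells. The difference of effects was 0.99 (SE 0.22), or 0.54 after length correction. For Abcc1 the lines differed by −0.61 (SE 0.12), or −0.16 after length correction, in the shPTN cells and 0.26 (SE 0.12) in the shCtrl cells. The difference of effects was −0.87 (SE 0.17), or −0.74 after length correction. For Abcb1b the lines differed by 2.13 (SE 0.15), or 2.51 after length correction, in the shPTN cells and 2.75 (SE 0.07) in the shCtrl cells. The difference of effects was −0.62 (SE 0.19), or −0.49 after length correction. For Gstm1, not among the 4, it was −0.18 (SE 0.25), or −0.64 after length correction.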

How the results depend on the processing

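Over the 45 differences of the 9 genes in 5 comparisons, 746 alternatives gave 680 values with the same sign and the same side of an adjusted p of 0.05, 14 that went past it, 16 that came under it and 36 with the opposite sign. All 36 belong to differences whose adjusted p was not under 0.05 as reported, and their cause was not tested. For the difference of effects, 198 alternatives gave 180 of the first kind, 8 that went past it, all of Abcb1b, 2 that came under it, both of Gstm1, and 8 with the opposite sign. These p are no tests for the 9 genes, and their moves across 0.05 say nothing of stability. With quantile normalization the sign turned for Gclm −0.01 in MMTV-PyMT, Nqo1 −0.07 and Gstm1 −0.13 in E0771-LG, Gclc 0.00 in the shPTN lines and Nqo1 −0.18 in the difference of effects. With length correction the sign turned for Gclm −0.01 in MMTV-PyMT, Gclc −0.09, Nqo1 −0.30 and Gstm1 −0.34 in E0771-LG, Gsta4 −0.09 in the shPTN lines and Nqo1 −0.36 in the difference of effects. With length and GC correction the sign turned for Gclm 0.00 in MMTV-PyMT, Gclc −0.04, Nqo1 −0.22 and Gstm1 −0.34 in E0771-LG, Gsta4 −0.17 in the shPTN lines and Nqo1 −0.34 in the difference of effects. Leaving out each sample in turn gave, where a sign turned, Nfe2l2 −0.13 to 0.01, Gclc −0.18 to 0.01, Gclm −0.03 to 0.26, Nqo1 −0.14 to 0.05, Gstm1 −0.06 to 0.37, Gsta4 −0.04 to 0.43 and Gstp1 −0.07 to 0.06 in 4T1, Nfe2l2 −0.04 to 0.32, Gclm −0.15 to 0.18, Gstp1 −0.13 to 0.22 and Abcb1b −0.18 to 0.42 in MMTV-PyMT, Nqo1 −0.01 to 0.14 in E0771, Gclc −0.03 to 0.07, Gclm −0.07 to 0.16, Nqo1 −0.12 to 0.30 and Gstm1 −0.07 to 0.23 in E0771-LG and Nfe2l2 −0.13 to 0.07, Gclm −0.23 to 0.00 and Nqo1 −0.19 to 0.24 in the difference of effects. Besides those given with their values, it moved by over 1.5 times, with the sign kept, Abcc1 −0.40 to −0.02 in 4T1, Gclc 0.11 to 0.49 and Abcc1 −0.24 to −0.02 in MMTV-PyMT, Nfe2l2 −0.19 to −0.03 in E0771, Nfe2l2 −0.22 to −0.05 in E0771-LG, Gclc −0.14 to −0.05 in the shPTN lines and Gclc −0.22 to −0.10 and Gstm1 −0.37 to −0.07 in the difference of effects. The count called with knockdown in E0771 was 1, and became 0 with 18 samples in 1 fit, 3 with length correction, 4 with length and GC correction, and 1 to 3 when 1 sample was left out. The pathway count there went from 21 to 9 with 18 samples in 1 fit, and that for the difference of effects from 26 higher and 7 lower to 20 in all at an adjusted p under 0.01. That stricter threshold left, over all genes, 971 of 2140 calls in E0771, 3016 of 4826 in E0771-LG and 1873 of 3602 for the difference of effects, and the fit of 18 samples called 1069 in E0771. The fit of 18 samples could not include 4T1, which has another scale, and read weights need the depth of each sample, not given for 4T1.

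Whether replicate numbers pair the samples cannot be settled with 3 samples a group. Same-numbered deviations correlated at −0.03, 0.14 and −0.04 in E0771 and at 0.16, 0.24 and −0.12 in E0771-LG. They correlated at −0.33, 0.44 and −0.25 in 4T1 and at −0.04, 0.13 and 0.21 in MMTV-PyMT. Between the shPTN lines the values were −0.15, −0.23 and 0.04. Of 3 samples, 1 correlated best with its own number in E0771, 2 in E0771-LG, 1 in 4T1, 1 in MMTV-PyMT and 0 between the shPTN lines. With the replicate block the count in E0771 was 3, with Gstp1 and Abcc1 added, beside 23.6% of all genes, from 20.6%. It was 4 in E0771-LG, beside 48.2%, from 46.4%, 6 between the shPTN lines, beside 58.8%, from 63.9%, and 0 in either tumor model with limma, beside 0%. Outside E0771 the counts of members equal those without the block. The SE of the tumors, up to 0.55 for Gstm1 in MMTV-PyMT, limit what 3 samples a group can show. On simulated data limma recovered 61 of 100 log2 changes of 1 in 4T1 and 51 of 100 in MMTV-PyMT. Of 100 log2 changes of 2 it recovered 93 in 4T1 and 80 in MMTV-PyMT.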
